A study of Mus musculus with 10 samples.

Results

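Of 10 clones derived from mouse 3T3-L1 preadipocytes, 3 had a Grb10 signal below 10 on the log2 scale, and these Grb10-low lines (clones 2D7, 5C4 and 5D4), selected on that signal, were compared with the other 7, the Grb10-bright lines (clones 4E3, 2F1, 4D11, 4D2, 1E7, 4H4 and 3F4). The split was made from the measured Grb10 signal and not from a label, so Grb10 itself was left out of every test and its values are a description. 3T3-L1 is a fibroblast line from mouse embryos whose cells turn into fat cells under a hormone cocktail. Each line was grown from a single colony, kept sub-confluent in DMEM with serum and given no treatment, and RNA was taken from dividing cells, before any cocktail. The study had classed 5 lines as Low and 5 as High by the triglyceride they stored after differentiation. The Grb10-low group held 1 Low line (2D7) and 2 High lines (5C4 and 5D4), and the Grb10-bright group held 4 Low lines (2F1, 4D11, 1E7 and 4H4) and 3 High lines (4E3, 4D2 and 3F4). Every line is 1 clone on 1 whole-transcript Affymetrix array, so all p-values measure the spread between clones, with array error in it.

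Grb10 encodes an adaptor protein that binds the active insulin and IGF1 receptors through its SH2 domain and dampens their signal, and it is a substrate of the growth kinase complex mTORC1. The gene is imprinted: in most mouse tissues the copy from the mother is read from an upstream start, while neurons use the copy from the father and other starts. Loss of Grb10 in mice is known to give larger bodies and stronger insulin signalling in muscle and fat.

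RefSeq placed 2 starts of Grb10 on the minus strand of chromosome 11 (GRCm38.p6), and the 250 bases before each are shown because this gene defines the split. The window chr11:12037421-12037670 lies farther upstream and the window chr11:12027972-12028221 farther downstream. Capitals mark CG, the dinucleotide at which DNA is methylated.
Grb10 upstream start: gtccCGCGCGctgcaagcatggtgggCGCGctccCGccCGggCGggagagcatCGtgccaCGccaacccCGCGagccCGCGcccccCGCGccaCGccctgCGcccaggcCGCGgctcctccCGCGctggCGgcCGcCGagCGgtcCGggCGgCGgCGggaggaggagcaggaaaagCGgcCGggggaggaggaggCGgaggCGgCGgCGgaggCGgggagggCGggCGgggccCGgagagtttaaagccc
Grb10 downstream start: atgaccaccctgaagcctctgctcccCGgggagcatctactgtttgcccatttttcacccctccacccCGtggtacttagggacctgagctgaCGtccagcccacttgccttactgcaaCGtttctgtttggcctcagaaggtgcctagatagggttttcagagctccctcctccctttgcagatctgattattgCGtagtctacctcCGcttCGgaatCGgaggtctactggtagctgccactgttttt
The upstream window held 40 CG and the downstream window 8, beside a median of 6 over 32851 RefSeq promoter windows of the same length. Of all these windows, 98.7% held fewer CG than the upstream one and 57.0% held fewer than the downstream one. The array has 1 probe set for Grb10 (Entrez 14783), so it gave no separate reading for the starts, and methylation was not measured.

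The log2 Grb10 signal was 6.75 in 2D7, 9.19 in 5C4 and 9.53 in 5D4. In the Grb10-bright lines it ran from 11.79 in 4E3 over a median of 12.18 to 12.29 in 3F4. The line just inside the limit, 5D4, and the line just outside it, 4E3, were 2.26 apart on the log2 scale, and no line lay between them. The 7 bright lines had a mean of 12.13 ± 0.17 (SD, n = 7) and the 3 low lines a mean of 8.49 ± 1.52 (SD, n = 3), so the low lines differed far more among themselves. On the linear RMA scale the bright mean was 7.70 times the value of 5C4 and 6.08 times that of 5D4. The signal of 2D7 was 0.35 above the 25th percentile of its array, close to the dim end, so no fold is given for it, whereas 5C4 and 5D4 kept a clear signal. In an RNA sample of a whole culture, fewer cells with Grb10 RNA and less Grb10 RNA per cell cannot be told apart.

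**Figure D1:**
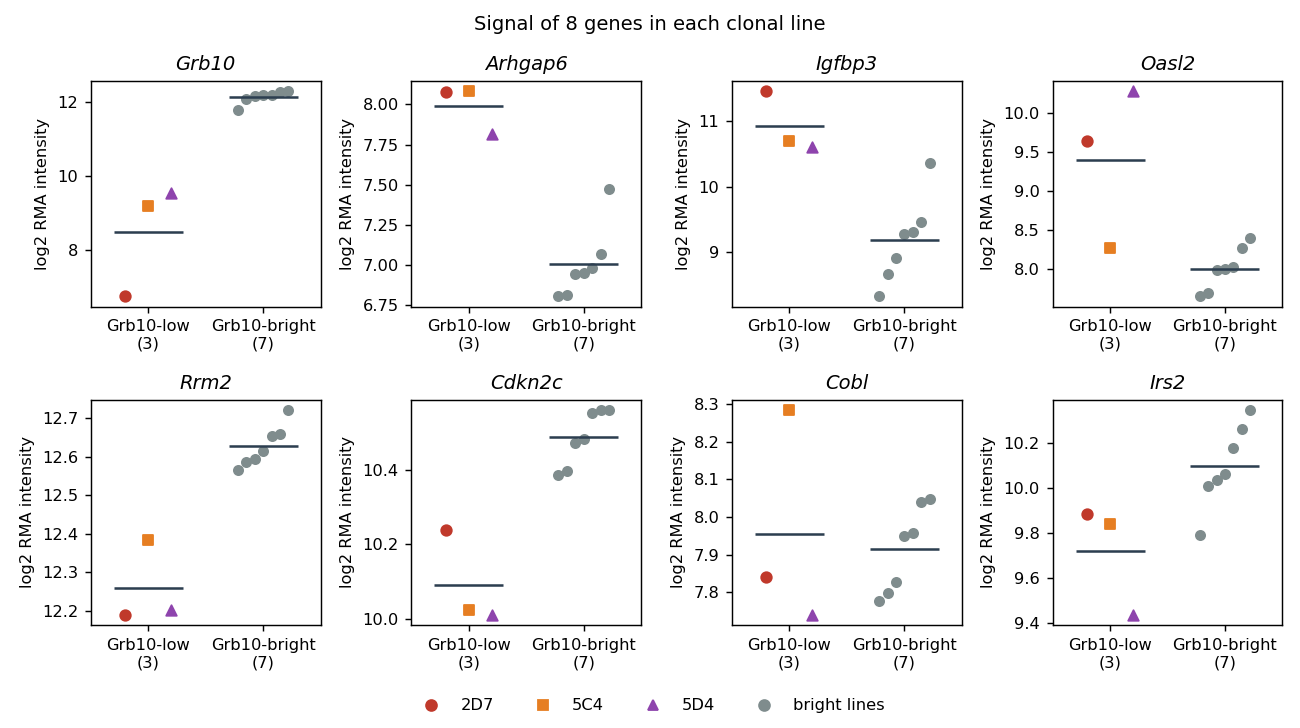
Log2 RMA signal of 8 genes in each clonal line, the 3 Grb10-low lines on the left of each panel and the 7 Grb10-bright lines on the right, with the group mean as a bar and a separate vertical range per panel. Arhgap6, Igfbp3, Rrm2 and Cdkn2c did not overlap between the groups, whereas Oasl2, Cobl and Irs2 did, and Grb10 is the gene that made the groups.

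The arrays were alike in scale, with medians from 7.74 to 7.84. The markers of fibroblasts were bright, with 13 of 16 above the median of the arrays and Vim highest at a mean of 14.09, and the preadipocyte gene Dlk1 lay between 13.76 and 13.94 in all lines. Of 5 marker lists of other cell types, 2 to 5 genes each were above the median of the arrays, and their summed signals overlapped between the groups. The array of 5C4 stood apart from the rest. Its mean correlation with the other arrays was 0.987, the lowest, against 0.991 to 0.993 elsewhere, and limma's array weight for it was 0.280 against 0.778 to 1.65. Its dim genes read high and its bright genes low: across genes, its deviation from the mean signal correlated with brightness at r = -0.376, against -0.110 to 0.237 on the other arrays (16507 genes of 1 array each time, which are no independent replicates). The names of 5C4 and 5D4 start with the digit 5, which no bright line has, and what this digit stands for is not given, so it cannot be told apart from the split in these lines. By Euclidean distance over the tested genes, 5C4 lay nearest to 3F4 and 5D4 nearest to 4H4, both Grb10-bright, while 2D7 lay nearest to 5D4. The mean distance was 40.03 over the 3 pairs of Grb10-low lines, 32.91 over the 21 pairs of bright lines and 36.81 between the groups, so the low lines did not form a tight group.

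Beyond Grb10, no single gene separated the groups past the threshold. With limma, 0 of 16507 genes (0.0%) reached an adjusted p under 0.05, and 1301 (7.88%) had an unadjusted p under 0.05, of which 513 (3.11%) were higher and 788 (4.77%) lower in the Grb10-low lines. The values of the groups did not overlap for 409 genes (2.48%), 164 of them higher (0.994%) and 245 lower (1.48%). Data were simulated at the same size, with 50 genes changed at each fold. There the test recovered 14% at 1.25-fold, 82% at 1.5-fold and 98% at 2-fold. The simulated lines had independent noise of equal spread, whereas the real array of 5C4 stood apart. These shares therefore do not say which folds could be found in the real lines. Arhgap6, at 1.99-fold, and Igfbp3, at 3.31-fold, did not pass. Over all tested genes the differences had a median of 0.019. Differences below are Grb10-low minus Grb10-bright on the log2 scale, with the standard error of limma's fit and its Benjamini-Hochberg adjusted p over all tested genes.

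The gene nearest to the threshold was Arhgap6, an X-linked gene whose product acts on the actin cytoskeleton. Its log2 signal was 8.08 in 2D7, 8.08 in 5C4 and 7.82 in 5D4, against a lowest of 6.80, a median of 6.95 and a highest of 7.47 in the bright lines. The 3 low lines stood above all 7 others, and the bright line nearest to them was 3F4. The difference was 0.99 ± 0.13 (SE), or 1.99-fold, with an adjusted p of 0.101. It passed under 3 of 25 other settings, with array weights (adjusted p = 0.0429), with an intensity trend and robust variances (0.0357) and without the bright line 3F4 (0.00144), and its adjusted p over all 25 ran from 0.00144 to 0.996.

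Igfbp3, a secreted protein that binds IGF1 and IGF2 and keeps them from their receptors, showed the largest difference among the 10 genes with the smallest p on the higher side. Its log2 signal was 11.45 in 2D7, 10.70 in 5C4 and 10.61 in 5D4, and in the bright lines it was 8.33 at the lowest, 9.28 at the median and 10.36 at the highest. All low lines were above all bright lines, but the gap to 3F4 was small. The difference was 1.73 ± 0.35 (SE), or 3.31-fold, with an adjusted p of 0.333, and it was 0.94 among the High lines alone.

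The other 8 genes of this set had adjusted p from 0.333 to 0.359, and all of them were higher in each low line than in any bright line. Rnf213, an interferon-inducible ubiquitin ligase, read 10.29, 9.87 and 10.59 in 2D7, 5C4 and 5D4 against 8.92 to 9.82, a difference of 0.86 ± 0.18 (SE). Sprr1a, a cornified-envelope protein that is also induced in injured and stressed cells, differed by 0.79 ± 0.16 (SE). Trim25, the ubiquitin ligase that activates the viral RNA sensor RIG-I, read 10.88, 10.73 and 11.06 against 10.47 to 10.63, a difference of 0.35. Mfap3, a microfibril-associated protein, had the tightest values, at 11.04, 11.05 and 10.99 against 10.75 to 10.80, with a difference of 0.25. Pip5k1b, a kinase that makes the membrane lipid PIP2, read 7.18, 6.63 and 6.83 against 6.26 to 6.54. Its bright values lay at or near the 25th percentiles of the arrays (6.38 to 6.47), the dim end, so no size is given for it. Tbcd, a tubulin-folding cofactor, differed by 0.40, Ttyh2, a membrane protein of the tweety family, by 0.39 and Trim47, a ubiquitin ligase, by 0.33. Of the 10 genes, 7 lie on chromosome 11, the chromosome of Grb10: Tbcd, Igfbp3, Rnf213, Mfap3, Trim25, Ttyh2 and Trim47.

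On the lower side the 10 genes with the smallest p had adjusted p of 0.333 each, and no low line overlapped a bright line in any of them. Cenpl, a centromere protein, read 8.05 in 2D7, 8.14 in 5C4 and 8.40 in 5D4 against 8.60 to 9.06 in the bright lines, a difference of -0.63 ± 0.11 (SE). Rrm2, the subunit of ribonucleotide reductase that limits the supply of DNA precursors in S phase, read 12.19, 12.38 and 12.20 against 12.57 to 12.72, a difference of -0.37 ± 0.07 (SE). In both genes 5D4 or 5C4 was the low line nearest to the bright ones. Ncapg2, a condensin subunit, differed by -0.44, G2e3, a ubiquitin ligase of the G2 phase, by -0.53, Cep72, a centrosomal protein, by -0.44 and Rhno1, a partner of a DNA damage checkpoint clamp, by -0.46. Cdkn2c, the CDK4 and CDK6 inhibitor p18, was on the same side, at 10.24, 10.02 and 10.01 against 10.39 to 10.56, a difference of -0.40 ± 0.07 (SE). Hilpda, a hypoxia-induced lipid droplet protein that inhibits fat breakdown, differed by -0.64, Styk1, a kinase-like membrane protein, by -0.41 and Lsm8, a subunit of the nuclear RNA-binding Lsm ring, by -0.40. Lsm8, Styk1, Hilpda and Rhno1, 4 of the 10, lie on chromosome 6. None of these 20 genes turned its sign in any of the 25 other settings that tested it.

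The receptors that Grb10 binds showed small differences with overlapping values. Insr, the insulin receptor, read 10.77 in 2D7, 10.29 in 5C4 and 10.35 in 5D4 against 10.03 to 10.65, a difference of 0.17 with a 95% interval from -0.13 to 0.48. Igf1r, the IGF1 receptor, differed by -0.05 with an interval from -0.28 to 0.18, and its sign turned with class in the fit (0.004) and among the High lines alone (0.09). Of 13 genes for insulin and IGF receptors, ligands and binding proteins, 9 were higher and 4 lower, with a median of 0.036, while without 5C4, 4 were higher and 9 lower, with a median of -0.033. Igfbp3 was at an unadjusted p under 0.05 on the higher side and Igfbp4, another IGF-binding protein, on the lower. All tested genes had 3.11% and 4.77% on these sides. Igfbp4 read 9.05, 8.56 and 8.76 against 8.61 to 10.73, a difference of -1.04 ± 0.35 (SE) with an adjusted p of 0.500. Both binding proteins lie on chromosome 11. The ligand Igf2 read 7.76 in 2D7, 8.73 in 5C4 and 7.29 in 5D4 against 7.73 to 8.24, so 1 low line was above the bright range and 1 below it, and the mean difference of 0.01 turned to -0.39 without 5C4.

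Among 22 substrates and adaptors of these receptors, 11 were higher and 11 lower, with a median of 0.006. Grb2, the adaptor that links receptors to Ras, read 9.78, 9.76 and 9.77 against 9.40 to 9.66, a difference of 0.23 ± 0.07 (SE) with an adjusted p of 0.456, and the groups did not overlap. It lies on chromosome 11, most genes of which read higher in the Grb10-low lines. Irs2, which carries the insulin signal to PI3 kinase, read 9.89, 9.84 and 9.44 against 9.79 to 10.35, a difference of -0.38 ± 0.12 (SE) with an adjusted p of 0.484. Irs1, the other main substrate, differed by -0.14 with an interval from -0.37 to 0.09, and Shc1, a Ras-linking adaptor, differed by -0.17. The relatives of Grb10 in the same adaptor family differed little: Grb7 differed by 0.12 with an interval from -0.04 to 0.28, and Grb14 by 0.17 with an interval from -0.30 to 0.63.

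Of 20 genes for proteins that bind Grb10, 12 were higher and 8 lower, with a median of 0.021. Ghr, the growth hormone receptor, read 11.97 in 2D7, 12.03 in 5C4 and 12.29 in 5D4 against 12.36 to 12.48, so every low line was below every bright line. Its difference was -0.32 ± 0.07 (SE) with an adjusted p of 0.379. Egfr, the EGF receptor and a neighbour of Grb10 on chromosome 11, read 9.19, 9.04 and 8.53 against 7.80 to 8.71, a difference of 0.64 ± 0.21 (SE) with an adjusted p of 0.469. Nedd4, the ubiquitin ligase that acts on the IGF1 receptor together with Grb10, differed by 0.02 and Gigyf1, an adaptor named for its binding to Grb10, by -0.03. Both turned their sign under some settings and had overlapping values. In the PI3K, AKT and mTOR cascade 9 of 26 genes were higher and 17 lower, with a median of -0.028. In limma's fit 0 were at an unadjusted p under 0.05, beside 7.88% of all tested genes.

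Since Grb10 is imprinted, the other imprinted genes were read in the same lines. Of 53 tested imprinted genes, 26 were higher and 27 lower in the Grb10-low lines, with a median of -0.004, and 3 had an unadjusted p under 0.05: Peg3 on the higher side, Herc3 and Copg2 on the lower, beside 3.11% and 4.77% of all tested genes. Herc3 and Copg2 lie on chromosome 6. Outside chromosomes 11 and 6 the list had 19 higher and 19 lower, with 1 higher and 0 lower at that p. Without 5C4, 18 were higher and 35 lower, with a median of -0.057 and 7 at an unadjusted p under 0.05 on the lower side. All tested genes leaned lower in that setting too, with 9281 of 16507 lower, a median of -0.017 and 4.76% lower at that p. The 3 low lines did not share a pattern. Peg3, a zinc-finger gene read from the father's copy, was 10.52 in 2D7, 9.02 in 5C4 and 9.31 in 5D4 against 8.30 to 9.11, so 2D7 stood far above the bright lines and 5D4 slightly above. Ndn (necdin), a growth-suppressing gene also read from the father's copy, was 10.74 in 2D7 against 11.91 to 12.33 in the bright lines, and read 12.28 in 5C4 and 12.33 in 5D4. Of the 53 genes, 2 in 2D7 lay more than 1 log2 unit outside the range of the bright lines (3.77%), beside 0.151% of all tested genes. In 5C4 and 5D4, 0 of the 53 did so, beside 0.0182% and 0.0909% of all tested genes, so a count of 0 there says little. Mest, read from the father's copy and linked to the growth of fat cells, was 6.60 in 2D7, 9.76 in 5C4 and 6.62 in 5D4 against 6.56 to 10.93, with 5C4 among the brighter High lines and 5D4 at the level of the Low lines. The paternally read Dlk1 differed by -0.06.

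**Figure D2:**
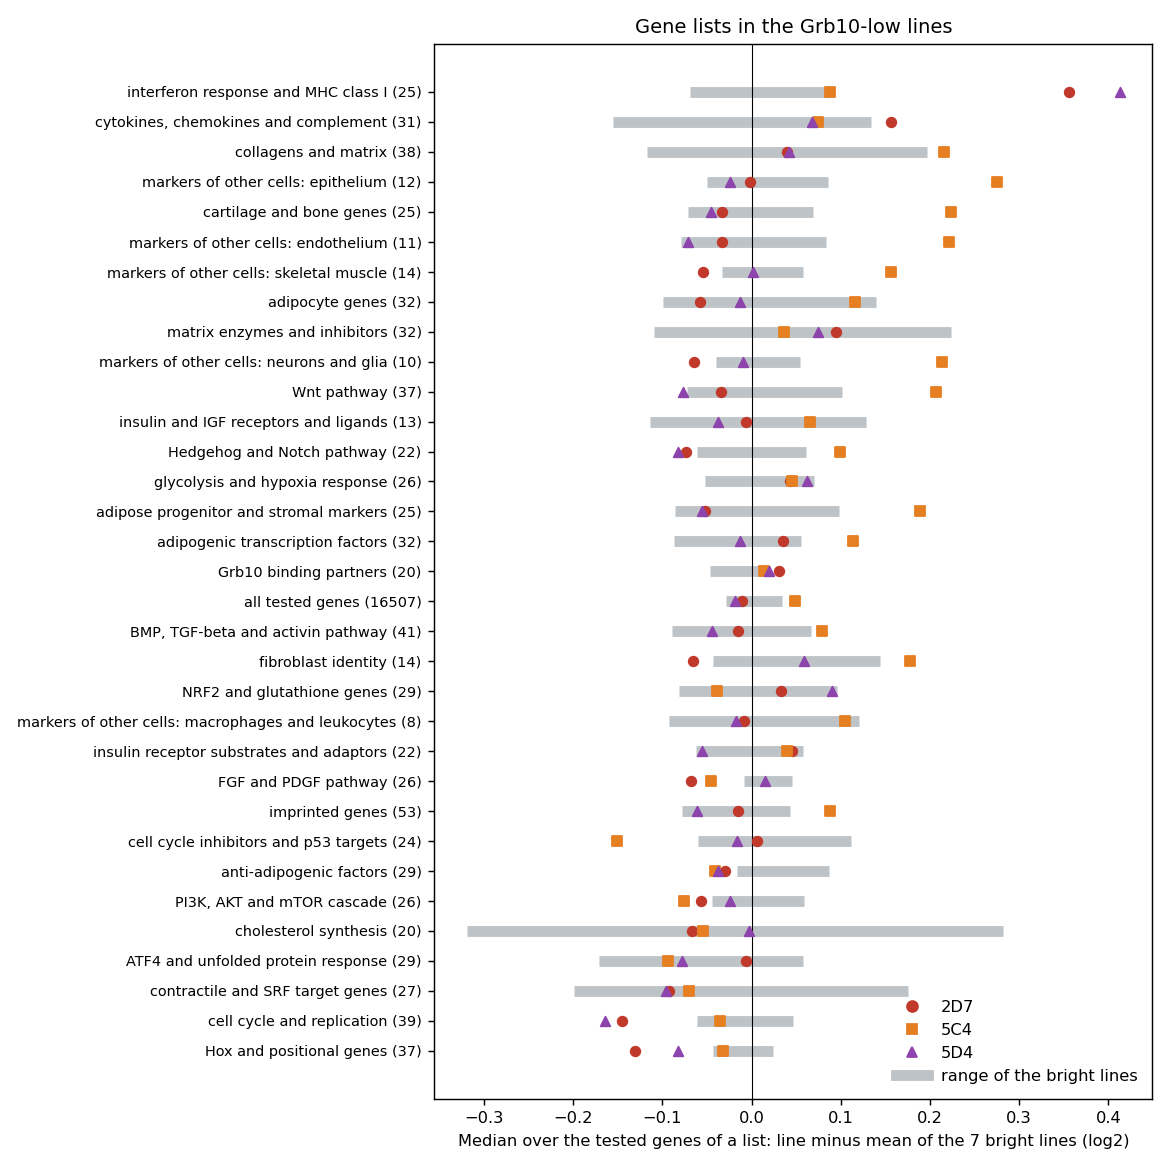
Median over the tested genes of each of 32 gene lists and of all tested genes, per Grb10-low line, as the difference from the mean of the 7 bright lines in log2 units, with the number of genes in brackets and a grey bar for the range of the bright lines. For the interferon list 2D7 (0.355) and 5D4 (0.413) lay far to the right of the bright range and 5C4 (0.088) at its upper end, and for cell cycle genes 2D7 and 5D4 lay to its left.

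Of the 32 lists, the interferon response with MHC class I had the largest share of genes at an unadjusted p under 0.05; it holds the genes by which cells answer viral RNA and show peptides to T cells. All 25 tested members were higher in the Grb10-low lines, with a median of 0.245 beside 0.019 over all tested genes, and 12 of 25 (48.0%) had an unadjusted p under 0.05 beside 3.11% of all tested genes. None passed the adjusted threshold with all lines. The difference was largest in 2D7 and 5D4. The median of the list relative to the bright mean was 0.355 in 2D7, 0.413 in 5D4 and 0.088 in 5C4, and the last was within the bright range of -0.069 to 0.093.

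Oasl2, an interferon-induced antiviral protein, read 9.64 in 2D7, 8.28 in 5C4 and 10.28 in 5D4 against 7.66 to 8.40 in the bright lines. The array of 5C4 was level with the bright lines and the other 2 low lines stood well above them. The difference was 1.39 ± 0.32 (SE) with an adjusted p of 0.379. Without 5C4 it was 1.95 with an adjusted p of 0.0316 in limma's fit, and over 25 settings the adjusted p ran from 0.0316 to 1. Ifit3, an antiviral protein that binds viral RNA sensing adaptors, read 8.89, 8.15 and 9.46 against 7.66 to 8.22, with a difference of 0.88 that was 1.22 without 5C4. Irf7, the transcription factor that amplifies the interferon response, read 8.37, 7.68 and 9.09 against 7.41 to 7.86, with a difference of 0.73. Bst2, which tethers budding virus to the cell, read 10.00, 9.53 and 10.63 against 9.22 to 9.80, with a difference of 0.64. In each of these genes 5D4 was highest, 2D7 next and 5C4 inside the bright range.

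Ddx58, which encodes the RNA sensor RIG-I, differed by 0.57, Ifi35 by 0.49, Irf9, a subunit of the factor that interferons activate, by 0.43 and Irf1 by 0.37. Of genes for antigen presentation, the peptide transporter Tap1 differed by 0.24, the class I gene H2-Q4 by 0.24 and the immunoproteasome subunit Psmb10 by 0.22. Psmb10 and Gbp3, a guanylate-binding protein with a difference of 0.29, were the members whose groups did not overlap. Outside chromosomes 11 and 6 the list held 22 genes, all 22 higher, 10 of them at an unadjusted p under 0.05. The list had 25 of 25 higher with class in the fit, among the High lines alone, after repeated quantile normalization and without 5C4, where its median was 0.372. Without 5D4 it was 21 of 25, with a median of 0.191, and without 2D7 it was 24 of 25. The count at an unadjusted p under 0.05 was 15 without 5C4, 7 without 2D7, 5 without 5D4 and 3 among the High lines alone. Whether the lines had met virus, nucleic acid or interferon is not given, and this was not tested.

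Promoters of 2 members are shown because this list had the largest share and these genes are among its 4 with the smallest p. Capitals mark GAAANNGAAA or its complement TTTCNNTTTC, the core of the element bound by interferon-activated factors. The Ifit3 window is chr19:34583279-34583528 on the plus strand and the Bst2 window is chr8:71537473-71537722 on the minus strand (RefSeq, GRCm38.p6, 250 bases before the start).
Ifit3: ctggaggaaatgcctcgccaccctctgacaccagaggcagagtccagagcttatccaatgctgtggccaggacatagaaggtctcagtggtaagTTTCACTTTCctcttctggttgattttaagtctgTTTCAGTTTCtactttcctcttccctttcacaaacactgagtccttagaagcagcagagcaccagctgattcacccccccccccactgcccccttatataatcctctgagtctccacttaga
Bst2: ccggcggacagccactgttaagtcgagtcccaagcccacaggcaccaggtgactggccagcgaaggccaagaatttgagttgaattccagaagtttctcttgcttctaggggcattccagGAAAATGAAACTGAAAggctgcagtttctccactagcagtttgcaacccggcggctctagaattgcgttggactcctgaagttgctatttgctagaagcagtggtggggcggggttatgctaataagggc
Each window held 2 matches, which overlap by 4 bases in Bst2. Read on both strands, the letters occurred in 2.98% of all 32851 windows. Of the 25 tested list members 22 had a window, and 8 of these (36.4%) held a match, beside 3.46% of the 27025 genes in the table. As the list was made of interferon response genes, the larger share goes with that choice and says nothing of the Grb10 split. Oasl2 and Irf7 held none in these windows, which says nothing of the factors that act on them.

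Genes for secreted immune signals leaned the same way, but only 2D7 stood above the bright lines. The median of the list was 0.156 in 2D7, 0.074 in 5C4 and 0.067 in 5D4, against a bright range of -0.155 to 0.134. Of 31 cytokine, chemokine and complement genes 23 were higher and 8 lower, with a median of 0.116, and 5 were at an unadjusted p under 0.05 on the higher side: Ccl2, Ccl5, Ccl7, Ccl11 and Cxcl10. All tested genes had 3.11% on that side. The count was 8 without 5C4, where the median was 0.076, 3 without 2D7 and 3 without 5D4. Among the High lines alone 1 was higher and 3 were lower at that p, with a median of 0.069. Ccl5, which draws T cells, read 10.40 in 2D7, 9.45 in 5C4 and 10.64 in 5D4 against 8.95 to 9.79, a difference of 0.71 with an adjusted p of 0.500. Ccl11, which draws eosinophils, read 8.47, 7.94 and 9.20 against 7.75 to 8.16, a difference of 0.58. Ccl2, which draws monocytes, differed by 0.39 and Ccl7 by 0.28. The 4 Ccl genes lie on chromosome 11, and outside chromosomes 11 and 6 the list had 16 of 22 higher with 1 at an unadjusted p under 0.05. Csf1, the macrophage growth factor, was lower in every low line than in any bright line, with a difference of -0.17.

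Genes of the cell cycle and DNA replication were mostly lower. Of 39 tested, 34 were lower and 5 higher, with a median of -0.108, and 9 were at an unadjusted p under 0.05 on the lower side beside 4.77% of all tested genes, with 1 on the higher side. The count on the lower side was 6 without 5D4, where the median was -0.056, 4 without 2D7 and 2 among the High lines alone, where it was -0.073. Outside chromosomes 11 and 6 the list had 28 of 33 lower, 7 of them at an unadjusted p under 0.05. Kif11, the motor that separates spindle poles, read 11.72 in 2D7, 11.75 in 5C4 and 11.88 in 5D4 against 11.93 to 12.23, a difference of -0.33 ± 0.08 (SE) with an adjusted p of 0.379. Cdk1, the kinase that starts mitosis, read 12.41, 12.51 and 12.36 against 12.61 to 12.73, a difference of -0.25 ± 0.06 (SE) with an adjusted p of 0.379. Neither gene overlapped between the groups. Foxm1, the factor that drives genes of mitosis, differed by -0.35, Aurka, a spindle kinase, by -0.31, Cenpf, a kinetochore protein, by -0.30, Mcm2, a helicase subunit for replication, by -0.25, Cdc25c, the phosphatase that activates Cdk1, by -0.25 and Tpx2, an activator of Aurka, by -0.18. Ccnb2, a mitotic cyclin, went the other way, at 12.95, 13.02 and 12.96 against 12.60 to 12.94, a difference of 0.20. The median of the list was -0.145 in 2D7, -0.035 in 5C4 and -0.164 in 5D4, against -0.062 to 0.046 in the bright lines, so 5C4 was within their range. Growth rate and the share of cells in each phase were not given, and their part in the result was not tested.

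Inhibitors of the cycle and p53 targets had no common direction over the whole list. Of 24 tested, 11 were higher and 13 lower, and 5 were at an unadjusted p under 0.05, all on the lower side beside 4.77% of all tested genes. Outside chromosomes 11 and 6 the count on the lower side was 4 of 21. Cdkn1b, the CDK inhibitor p27, read 11.53 in 2D7, 11.54 in 5C4 and 11.61 in 5D4 against 11.76 to 12.15, a difference of -0.34 ± 0.09 (SE) with an adjusted p of 0.447. Gadd45b, a stress sensor of the p38 pathway, read 9.89, 10.35 and 9.91 against 10.36 to 10.52, a difference of -0.40 ± 0.09 (SE) with an adjusted p of 0.379. Without 5C4 the Gadd45b difference was -0.55 with an adjusted p of 0.0331 in limma's fit, and over 25 settings the adjusted p ran from 0.0331 to 1. Gadd45g differed by -0.27 and Rbl1, the retinoblastoma relative p107, by -0.23.

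Stress, contractile and positional genes were mostly lower as well. Of 29 genes of the ATF4 and unfolded protein response 24 were lower, with a median of -0.075 that was -0.022 without 5D4, with 18 lower, and -0.118 among the High lines alone. Atf4 itself, the factor of the amino acid response, differed by -0.28. The line medians of this list lay inside the bright range of -0.171 to 0.058 for all 3 low lines. Of 27 contractile genes and targets of the serum response factor 24 were lower, with a median of -0.107. By line the median was -0.092 in 2D7, -0.070 in 5C4 and -0.096 in 5D4, all inside the bright range of -0.199 to 0.175. Among the High lines alone 14 of these 27 were lower and the median was -0.001. Fhl1, a LIM protein of muscle and stroma, read 10.63 in 2D7, 11.74 in 5C4 and 10.33 in 5D4 against 11.35 to 12.52, a difference of -1.08 ± 0.29 (SE) with an adjusted p of 0.447. Of 37 Hox and positional genes 26 were lower, with a median of -0.111 and 7 at an unadjusted p under 0.05 on the lower side beside 4.77% of all tested genes. Without 2D7 the median was -0.044 with 3 at that p, and among the High lines alone it was -0.051 with 1. Of the 37 genes, 8 lie on chromosome 11 and 9 on chromosome 6. Outside these chromosomes 15 of 20 were lower, 4 of them at that p. By line the median was -0.131 in 2D7, -0.032 in 5C4 and -0.082 in 5D4. The bright range was -0.043 to 0.024, so 5C4 was within it. Hoxd8, a homeobox gene of trunk and limb pattern, read 10.06, 10.12 and 10.20 against 10.25 to 10.69, a difference of -0.31 with no overlap, while Hoxd3, Hoxd4, Hoxa2, Hoxa3 and Hoxb6 overlapped.

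Genes that decide or mark fat cell formation gave no common direction. Of 32 adipogenic transcription factors 18 were higher and 14 lower, with a median of 0.023, and 5 were at an unadjusted p under 0.05, all higher: Srebf1, Ppara, Cebpa, Stat5a and Egr2. All tested genes had 3.11% on that side. Without 5C4, 16 were higher and 16 lower, with 1 at that p, and among the High lines alone 1 was at that p in each direction. Srebf1 and Stat5a lie on chromosome 11. Outside chromosomes 11 and 6 the list had 12 higher and 12 lower, with 3 at that p, all higher. Cebpa, a factor of terminal fat cell differentiation, read 8.54 in 2D7, 8.65 in 5C4 and 8.38 in 5D4 against 7.90 to 8.47, a difference of 0.34 ± 0.11 (SE) with an adjusted p of 0.502. Pparg, the main factor of fat cell formation, read 11.13, 11.97 and 11.75 against 11.26 to 12.22, a difference of -0.14 with an interval from -0.63 to 0.36. Its lowest value over all 10 lines was that of 2D7, the Low line of the group. Fabp4, the fatty acid carrier of fat cells, read 8.17, 9.89 and 8.63 against 8.13 to 10.45, so that 5D4, a High line, was below all 3 High bright lines, which lay between 10.06 and 10.45. Vstm2a, a secreted factor of preadipocytes and a near neighbour of Grb10, read 8.03 in 2D7, 10.61 in 5C4 and 8.65 in 5D4, and the 3 High bright lines lay between 10.37 and 10.94. In Fabp4, Vstm2a and Mest alike, 5C4 read within or near the bright High lines while 5D4 read lower than all 3 of them.

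Among factors that hold back fat cell formation, Sox9, a factor of cartilage and progenitor cells, read 12.76 in 2D7, 12.50 in 5C4 and 12.72 in 5D4 against 12.18 to 12.53, a difference of 0.32 ± 0.09 (SE) with an adjusted p of 0.447. Gata2, which represses Pparg, differed by -0.34. Sox9 lies on chromosome 11 and Gata2 on chromosome 6, and of the 29 tested factors of this kind 14 were higher and 15 lower. Cd34, a marker of stromal progenitors, read 7.25, 7.34 and 7.40 against 6.41 to 7.13, a difference of 0.52 ± 0.14 (SE) with an adjusted p of 0.407, and the groups did not overlap. Its signal lay below the median of the array in every line. It alone of 25 progenitor and stromal markers (4.0%) had an unadjusted p under 0.05, beside 3.11% of all tested genes on the higher side. Of the 25 markers 18 were higher and 7 lower, but without 5C4 8 were higher and 17 lower. Of the growth factor pathways, Fgfr2, an FGF receptor, read 9.96, 10.26 and 10.31 against 10.43 to 10.79, a difference of -0.39 ± 0.10 (SE), and Pdgfa, a PDGF ligand, read 11.40, 11.56 and 11.62 against 11.67 to 11.91, a difference of -0.27. Ptch1, the Hedgehog receptor, read 9.74, 10.12 and 10.06 against 10.18 to 10.46, a difference of -0.29. Each of these 3 was lower in every low line than in any bright line, with adjusted p of 0.391, 0.447 and 0.460 in that order. Their lists did not lean lower. FGF and PDGF genes were 13 higher and 13 lower (median 0.003), and Hedgehog and Notch genes 15 higher and 7 lower (median 0.029). At an unadjusted p under 0.05, the first list had 0 higher and 2 lower and the second 1 and 3. All tested genes had 3.11% higher and 4.77% lower at that p.

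Collagens and other matrix genes had 29 of 38 higher, with a median of 0.106. In limma's fit over all lines only Col4a5, a basement membrane collagen with a difference of 0.28, was at an unadjusted p under 0.05 on that side. All tested genes had 3.11% there. Without 5C4, 24 of 38 were higher, with a median of 0.048, and among the High lines alone 24, with a median of 0.057. By line their median was 0.215 in 5C4, 0.040 in 2D7 and 0.042 in 5D4, against a bright range up to 0.196. For cartilage and bone genes (0.223), endothelial markers (0.221), epithelial markers (0.275), markers of neurons and glia (0.214) and Wnt pathway genes (0.206) 5C4 alone stood above the bright range, and over all tested genes its median was 0.049. In the comparison of all 3 low lines, removing the brightness trend of each array, a step chosen after seeing the data, moved the median of cartilage and bone genes from 0.063 to 0.021, of epithelial markers from 0.080 to 0.034, of endothelial markers from 0.052 to -0.0001, of markers of neurons and glia from 0.041 to -0.0065 and of Wnt pathway genes from 0.040 to -0.0040. The median of the collagens was 0.118 after this step. Without 5C4 the medians of the first 5 lists were -0.023, -0.027, -0.050, -0.065 and -0.051 in that order.

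Most genes of chromosome 11, which carries Grb10, read higher in the Grb10-low lines. Of 1438 tested genes on chromosome 11, 1239 were higher, with a median of 0.099. On this chromosome 237 genes (16.5%) had an unadjusted p under 0.05 on the higher side and 6 (0.417%) on the lower, and the groups failed to overlap for 84 genes, all of them higher. The count on the higher side was 106 without 2D7, 369 without 5C4, where 979 of the 1438 were higher, and 44 among the High lines alone. Chromosome 11 held 8.71% of the tested genes but 46.2% of the 513 genes that were higher at an unadjusted p under 0.05 and 51.2% of the 164 that were higher without overlap. Relative to each gene's mean over the lines and to the median of each array, the chromosome stood at 0.101 in 2D7, 0.047 in 5C4 and 0.054 in 5D4, and between -0.035 and -0.008 in the bright lines. The groups did not overlap in this value. They also did not overlap after repeated quantile normalization, with 0.093, 0.029 and 0.051 in 2D7, 5C4 and 5D4, and after removal of the brightness trend, with 0.090, 0.028 and 0.049. DNA copy number was not measured, and its part in the result was not tested.

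**Figure D3:**
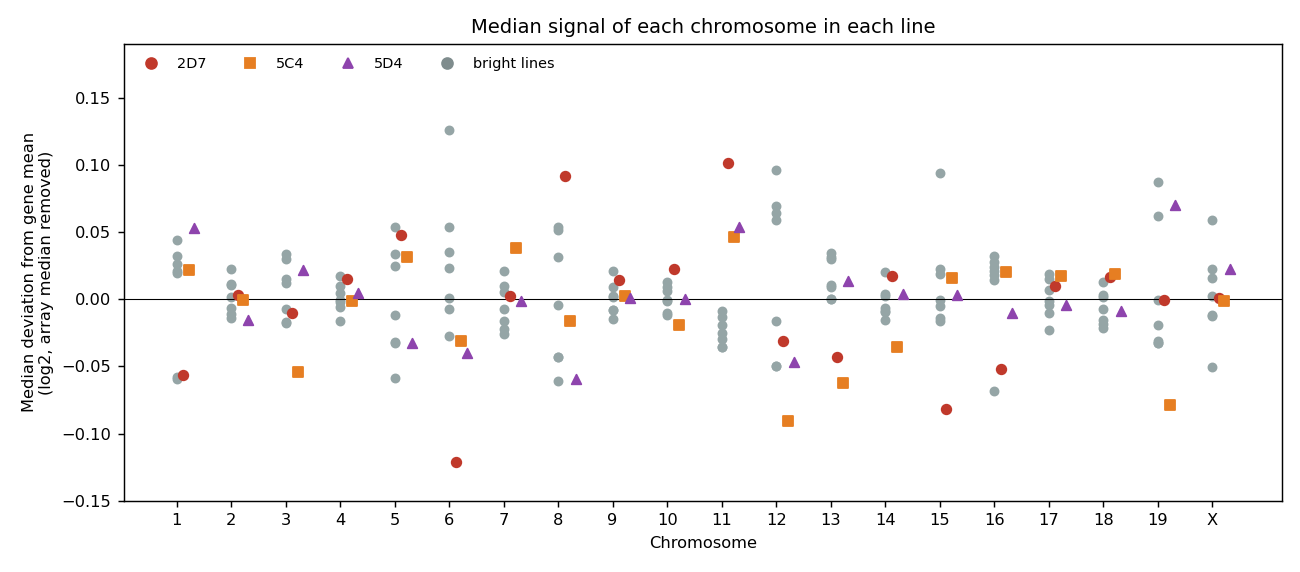
Median deviation of the genes of each chromosome from their mean over the 10 lines, with the median of each array taken off, in log2 units, for each Grb10-low line and for the 7 bright lines in grey. On chromosome 11 the 3 low lines lay between 0.047 and 0.101 and all bright lines below 0, and on chromosome 6 the line 2D7 was lowest at -0.121.

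Grb10 lies near the start of chromosome 11 in map order. Cut into 8 stretches of equal gene number, 7 had all 3 low lines above all bright lines, and the exception was the first, which holds Grb10 (180 genes, from Sfi1 to Ranbp17). There 2D7 read 0.172 and 5D4 0.074, while 5C4 read -0.030, inside the bright range of -0.078 to -0.013. Of the 50 tested genes nearest to Grb10, 25 on each side, 44 were higher and 6 lower, with a median of 0.090 that was 0.14 without 5C4, 0.056 without 2D7 and 0.045 among the High lines alone. At an unadjusted p under 0.05, 6 were higher and 1 lower, beside 3.11% and 4.77% of all tested genes and 16.5% higher on chromosome 11. Of the genes beside Grb10, Fignl1 had a clear signal and did not share the fall, at 10.16, 10.03 and 10.09 against 10.02 to 10.26. Ddc and Ikzf1 read below the medians of the arrays (7.74 to 7.84) in all lines, and Cobl near them. A fall like that of Grb10 could hardly show in these 3 genes. Ddc, which makes dopamine and serotonin and is imprinted together with Grb10 in some tissues, read 6.92 in 2D7, 7.16 in 5C4 and 6.78 in 5D4 against 6.75 to 7.18, a difference of 0.03 with an interval from -0.20 to 0.25. Cobl, an actin nucleator on the other side, read 7.84, 8.28 and 7.74 against 7.78 to 8.05, a difference of 0.04 with an interval from -0.20 to 0.28. Ddc, Cobl and the next genes Ikzf1 (0.01) and Fignl1 (-0.003) turned their signs under some settings, among them the leading digit as a block for Cobl, Ikzf1 and Fignl1. Farther out, Igfbp3, Egfr and Cnrip1, which encodes a cannabinoid receptor-interacting protein, had the largest differences, with Cnrip1 at 8.68 ± 1.46 (SD, n = 3) against 7.48 ± 0.51 (SD, n = 7) and an adjusted p of 0.559 in limma's fit.

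**Figure D4:**
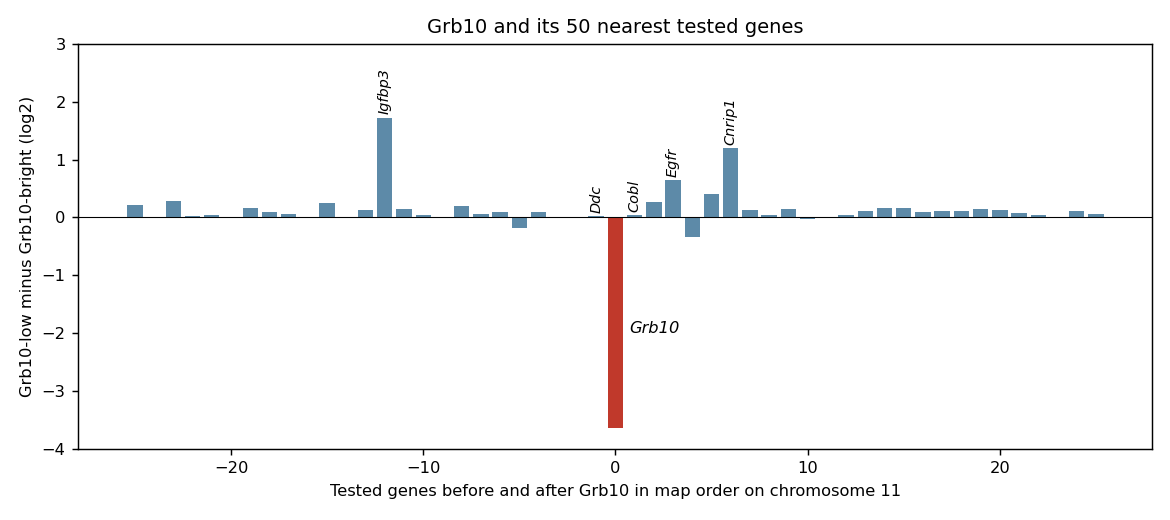
Difference of Grb10-low minus Grb10-bright lines in log2 units for Grb10 (red, the gene that made the groups) and the 25 tested genes on each side of it in map order on chromosome 11. Ddc and Cobl, on either side of Grb10, lay at 0.03 and 0.04, and Igfbp3 reached 1.73.

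**Figure D5:**
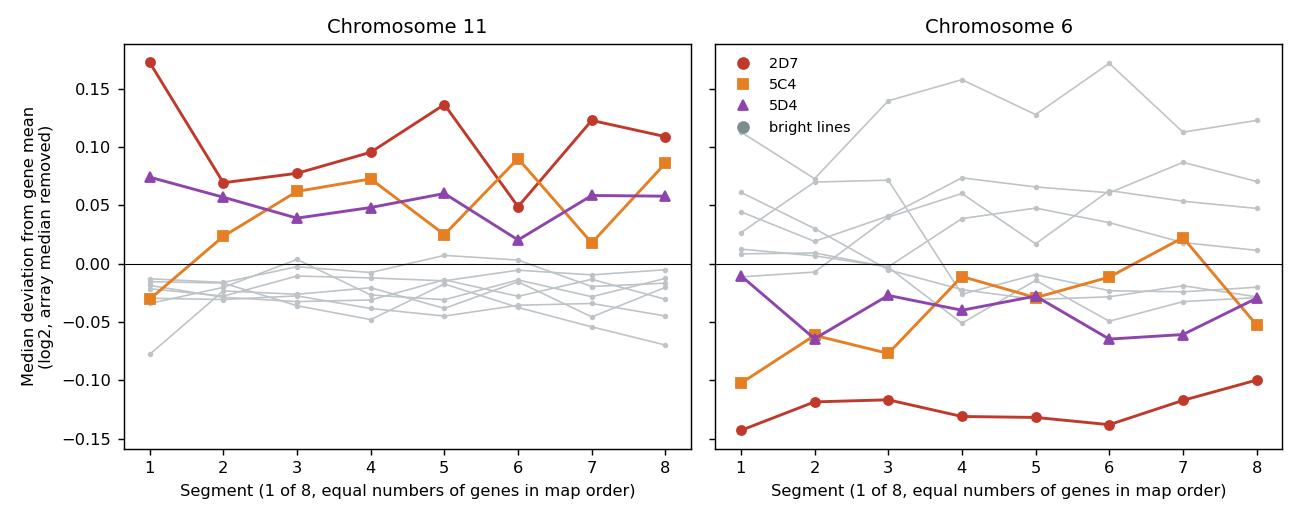
Median deviation from the gene mean, with the median of each array taken off, in log2 units, along 8 stretches of equal gene number on chromosome 11 and on chromosome 6, with the bright lines in grey. On chromosome 11 the low lines lay above the bright lines in stretches 2 to 8, and on chromosome 6 the line 2D7 lay below all others throughout, while 5C4 lay inside the bright range in stretches 4 to 7 and 5D4 in stretches 1, 4 and 5.

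Chromosome 6 leaned the other way. Of its 832 tested genes 192 (23.1%) were lower at an unadjusted p under 0.05 and 3 higher, with a median of -0.095, and 69 were lower without overlap. Without 2D7, 77 were lower and 11 higher at that p, with a median of -0.050, and among the High lines alone 87 were lower. Without 5D4, 20 were higher and 186 lower, and without 5C4 6 and 199. It held 5.04% of the tested genes, 24.4% of the 788 genes lower at an unadjusted p under 0.05 and 28.2% of the 245 lower without overlap. The chromosome stood at -0.121 in 2D7, -0.031 in 5C4 and -0.040 in 5D4, against -0.028 in 4H4 to 0.126 in 4E3, so 5C4 and 5D4 were just below the lowest bright line. After removal of the brightness trend 5C4, at -0.026, was inside the bright range. In 3 of 8 stretches all low lines were below all bright lines. Chromosome 12 had 14.4% and chromosome 13 had 12.8% of their genes lower at an unadjusted p under 0.05, but the line values overlapped. Outside chromosomes 11 and 6, 863 of 14237 genes (6.06%) had an unadjusted p under 0.05, 273 higher (1.92%) and 590 lower (4.14%).

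The comparison was repeated with adipogenic class taken into account. With class as a covariate limma called 0 genes, with 575 (3.48%) higher and 859 (5.20%) lower at an unadjusted p under 0.05. Among the High lines alone, 5C4 and 5D4 against 3 bright lines, it called 0, with 193 (1.17%) higher and 319 (1.93%) lower. The difference of Arhgap6 was 0.96 with class in the fit (adjusted p = 0.118) and 0.82 among the High lines, and that of Rrm2 was -0.37 and -0.32. Cenpl stood at -0.67 and -0.63 in these fits, and Cdkn2c at -0.39 and -0.49. Since 2D7 was the only Low line of the group, its own state and any effect of class among the low lines cannot be told apart.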

How the data were processed

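RNA of each of the 10 lines was hybridised to 1 whole-transcript Affymetrix array. The deposited values are log2 intensities per probe set, for which the submitters' processing notes name RMA, a method that corrects background, equalises the arrays and summarises probes, and a shift common to most genes is removed by it. Its version and settings, the array annotation, the genome build and the batches are, in the sources used here, not given. The authors' table held 34760 probe sets, of which 21640 carried 1 gene symbol in the platform annotation, 1321 several and 11799 none. RefSeq (GRCm38.p6) held the gene IDs of 21553 and gave gene order, chromosomes and promoters.

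The brightest probe set stood for each of 19937 genes. A gene was tested when it exceeded the 25th percentile of the array in at least 3 of 10 arrays, which kept 16507 besides Grb10 and left out 3429. The Grb10-low lines (Grb10 below 10) were compared with the others by limma 3.58.1 (lmFit, eBayes) in R 4.3.3, two-sided, with Benjamini-Hochberg adjustment and a threshold of 0.05. Folds are powers of 2 of log2 differences. The fit was tested on simulated data, where 6 of 153 calls were false. Lists and chromosomes were described by counts and medians, without a test. Python 3.11.15 with numpy 2.4.6 and pandas 2.3.3 handled the tables and matplotlib 3.10.9 the plots.

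The named genes were the 10 with the smallest p in each direction, without predicted and non-coding genes, a panel of 19 genes and up to 4 leading members of each list, and other list members at an unadjusted p under 0.05 are named beside their list's count. The split, the 32 lists (896 genes, 825 with a probe set of 1 gene) and the panel were chosen with earlier results of these data known, so none is independent evidence. Alternatives covered adipogenic class, filters, averaged probe sets, normalization, array weights, variance models, a minimum fold, the first digit of clone names as a block and each line left out in turn. As arrays count no reads, it is the number of lines that limits the precision.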

Additional observations from a re-analysis of the deposited data

Results flagged for a closer look

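In 70 sets of 7 values, 1 per named gene in the Grb10-bright lines, 4 held a line far from the other 6, where chance would give about 3.5 at 1 in 20. Line 3F4 read 7.47 for Arhgap6, above the other bright lines at 6.80 to 7.07. Line 4D11 accounted for the other 3, with Styk1 at 10.42 (others 10.57 to 10.66), Pdgfra, a receptor that marks adipose progenitors, at 10.68 (others 11.28 to 11.58) and Ptch1 at 10.46 (others 10.18 to 10.25).

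For 4 genes the Grb10-low minus Grb10-bright difference was not the same in the High and the Low lines by limma's interaction term, adjusted over all tested genes. The Low arm has 2D7 as its only Grb10-low line, so each of these is a value of 1 clone, whose spread is assumed to be like that of the other groups. Renbp, a sugar epimerase that binds renin, read 7.44 in 2D7 and 10.51 to 11.14 in all 9 other lines, and its difference was 3.52 larger in the High lines (adjusted p = 0.000171). The uncharacterised 2510002D24Rik read 7.35 in 2D7 and 8.82 to 9.05 elsewhere, an interaction of 1.71 (adjusted p = 0.00109). Ndn read 10.74 in 2D7, with an interaction of 1.68 (adjusted p = 0.0180). Pcdhb9, a clustered protocadherin of cell adhesion, read 8.34 in 2D7 and 5.81 to 6.71 elsewhere, with an interaction of -1.84 (adjusted p = 0.0478).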

How the results depend on the processing

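With limma the count of genes past the threshold was 0 and stayed 0 under the class covariate, the High lines alone, the 3 other filters, the mean of probe sets, both rescalings, the intensity trend, the minimum fold and the removal of the brightness trend. It was 1 with the trend and robust variances and 1 with array weights (Arhgap6 both times), 2 with the leading digit as a block (Renbp and 2510002D24Rik), where only 2D7 and 2F1 share a digit across the split, and 26 without 5C4 and 5D4. With each line left out it ran from 0 to 3. It was 1 without 3F4 (Arhgap6) and 3 without 5C4: Oasl2, Gadd45b and Polm, a DNA repair polymerase on chromosome 11 (0.70, adjusted p = 0.0444, beside 0.0289 to 1 over 25 settings). At an unadjusted p under 0.05 the 513 higher and 788 lower genes became 794 and 786 without 5C4, 394 and 472 without 2D7, 677 and 875 without 5D4, 628 and 720 after repeated quantile normalization, 31 and 27 with a minimum fold of 1.2 and 943 and 1064 with array weights. The median of the 50 genes nearest to Grb10 was 0.090, 0.19 with the digit as a block, 0.17 without 5C4 and 5D4 0.056 to 0.14 with each line left out and lowest among the High lines alone (0.045). The median of chromosome 11 stayed between 0.084 and 0.120 under 21 settings. Leaving out both digit-5 lines and removing the brightness trend were chosen after seeing the data.

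Of 70 gene differences, 16 turned their sign under at least 1 of 25 settings, and none of these passed the threshold with all lines. With class as a covariate, Igf1r (0.0042), Ddc (-0.017), Igf2 (-0.037), Vstm2a (-0.38), Angptl4 (-0.047), Ikzf1 (-0.0018) and Fignl1 (0.0056) did. Among the High lines alone, Igf1r (0.090), Nedd4 (-0.012), Ddc (-0.086), Igf2 (-0.0087) and Vstm2a (-1.005) did. After repeated quantile normalization, Ddc (-0.021), Ikzf1 (-0.034) and Fignl1 (0.021) did. With arrays centred on their medians, Fignl1 (0.0074) did. With array weights, Ddc (-0.027), Cobl (-0.063), Igf2 (-0.22), Vstm2a (-0.28), Angptl4 (-0.072), Ikzf1 (-0.038) and Fignl1 (0.032) did. With the leading digit as a block, Gigyf1 (0.041), Cobl (-0.21), Angptl4 (-0.11), Pdgfra (-0.036), Foxo3 (-0.025), Csf1r (0.057), Tie1 (-0.097), Ikzf1 (-0.10) and Fignl1 (0.14) did. Without 5C4 and 5D4, Ddc (-0.0096), Cobl (-0.074), Igf2 (-0.15), Vstm2a (-0.79), Angptl4 (-0.54), Pdgfra (-0.11), Csf1r (0.039), Ikzf1 (-0.055) and Fignl1 (0.068) did. With the brightness trend removed, Ddc (-0.025), Cobl (-0.0015), Igf2 (-0.032), Ikzf1 (-0.043) and Fignl1 (0.021) did. With each line left out the differences ran from -0.054 to 0.52 for Angptl4, -0.12 to 0.15 for Cobl, -0.077 to 0.11 for Ddc, -0.038 to 0.030 for Fignl1, -0.054 to 0.021 for Gigyf1, -0.085 to 0.011 for Igf1r, -0.39 to 0.33 for Igf2, -0.090 to 0.075 for Ikzf1, -1.53 to 0.052 for Mest, -0.011 to 0.064 for Nedd4, -0.31 to 0.11 for Pparg and -0.48 to 0.81 for Vstm2a. The cause of these turns was not tested. No paired analysis was possible because the replicate numbers follow the accession order within each class, not a shared culture, and the split does not follow the classes. With 3 low lines, 1 of them on an array that stood apart, small differences were hardly detectable. The simulated test, whose noise was independent and of equal spread between lines, recovered 14% of genes changed 1.25-fold.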

Other observations

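The line 2D7, with the dimmest Grb10, differed from the bright lines in a further set of genes, some of which also lay outside the bright range in 5C4 or 5D4. With 5C4 and 5D4 left out, a setting chosen after seeing the data, 26 genes passed limma's adjusted threshold for 2D7 against the 7 bright lines, with its spread assumed to be like that of the bright lines. Of the 26, the genes named here were chosen after their values were seen. Emb (embigin), a membrane partner of lactate transporters, read 4.70 in 2D7, 7.67 in 5C4 and 10.25 in 5D4, and 8.08 to 10.29 in the bright lines. The value of 2D7 lay below the 25th percentile of its array (6.40), at the dim end, so no size is given for its difference (adjusted p = 0.0347). Aebp1, a collagen-binding protein of stromal cells and preadipocytes, read 9.79 in 2D7 and 11.63 to 12.53 in the other 9 lines, with a difference of -2.20 (adjusted p = 0.0288). Mmp16, a membrane-bound matrix protease, read 8.39 in 2D7 and 6.19 to 7.10 elsewhere. Its values in the bright lines 1E7 (6.19) and 4D2 (6.35) lay below the 25th percentiles of their arrays (6.43 and 6.42). The signal of the bright lines thus reached the dim end, and no size is given for the Mmp16 difference. Flt1, a receptor for VEGF, was high in 2D7 (10.30) and 5D4 (9.80), low in 5C4 (8.14) and between 8.38 and 8.97 in the bright lines. The adjusted p of each of these genes ran up to 1 over the other settings, and with all 3 low lines in the fit none passed.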
